A study of Rattus norvegicus with 56 samples.

Results

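The hippocampus was compared with the parietal cortex of the same rats, in the 12 animals that had received intermittent theta burst stimulation (iTBS). The members were the first arrays titled Y_iTBS, AU_iTBS and AI_iTBS in both regions, 24 of the 56 arrays of the series, paired by the animal named in the labels. All were male Long-Evans rats killed 48 h after 1 session of iTBS, a form of transcranial magnetic stimulation that gives short bursts of magnetic pulses through a coil centered 8 mm above the skull. There were 4 young rats (Y_iTBS, 6 to 7 months old), 5 aged-unimpaired rats (AU_iTBS) and 3 aged-impaired rats (AI_iTBS), both aged groups being 26 to 27 months old and divided by their performance in a water maze. The 12 sham animals (4 in each group) had the same ages and handling with the coil away from the head, and served for comparison. Stimulated and sham rats alike were anesthetized with isoflurane, received dexmedetomidine (0.035 mg per kg in young and 0.03 mg per kg in aged rats) and then its antagonist Antisedan. According to the study's methods the tissue was dorsal hippocampus and the neocortex under the coil, microdissected.

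The hippocampus is the older, folded edge of the cortex. Its granule cells in the dentate gyrus and its pyramidal cells in the fields CA3, CA2 and CA1 form a chain of excitatory synapses that is needed for spatial memory. The parietal cortex has 6 layers, in which upper-layer neurons mostly project within the cortex and deep-layer neurons project to the thalamus, brainstem and spinal cord. Both regions hold inhibitory interneurons, glia and blood vessels, and the hippocampus borders the lateral ventricle, with its choroid plexus and ependymal lining, and the thalamus. Arrays of whole tissue cannot tell apart fewer cells of a type and less RNA per cell.

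The values below are log2 signals scaled so that each array has the same mean, which is set to 0, and the same spread. On this scale a difference of 1 is a 2-fold difference of signal, and levels are compared between regions for a probe, never between probes. The 3 genes used as markers of hippocampus fitted the labels. This is not an independent check, because lists and tests were chosen with earlier results of these data known. Klk8 encodes neuropsin, a serine protease of hippocampal neurons. Its signal was 5.57, 5.95 and 6.23 (lowest, median, highest of 12) in hippocampus and -2.58, -1.71 and 0.07 in cortex. Neurod6, a transcription factor of excitatory forebrain neurons, stood at 6.57, 6.95 and 7.26 in hippocampus, against 4.63, 4.96 and 5.12 in cortex. For both genes every hippocampus array lay above every cortex array. Zbtb20, a transcription factor needed for hippocampal identity, was higher in hippocampus in each of the 12 animals, by 1.21 ± 0.16 (SE, n = 12), but the regions overlapped, with 1.46 to 2.80 in hippocampus and -0.14 to 1.67 in cortex.

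The share of probes well above background was 65.0% ± 2.03 (SD, n = 12) on hippocampus arrays and 64.6% ± 2.81 (SD, n = 12) on cortex arrays, with p = 0.732 in an exact two-sided sign-flip test. Before scaling, the median log2 signal was higher in hippocampus in 11 of 12 animals, with p = 0.00635 in the same exact test. The regions were largely hybridized on different slides. No animal had both regions on 1 slide, and only 1 of 7 slides held both regions of stimulated animals (1 hippocampus and 3 cortex arrays). Both regions were scanned on the same day for 8 of the 12 animals, 7 of them on the first day. For most arrays slide and region therefore cannot be told apart, and counts are also given with the slide as a block.

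In the fit across all probes, 11363 of 33719 probes (33.7%) differed between hippocampus and cortex in stimulated animals at an adjusted p under 0.05 with limma. Of these, 5932 (17.6%) had more signal in hippocampus and 5431 (16.1%) in cortex. A difference of at least 2-fold was reached by 1229 of the probes higher in hippocampus and by 1191 of those higher in cortex. The median absolute difference was 0.23 and the median SE 0.12. In 1618 of 33720 probes (4.8%) the regions did not overlap among the stimulated animals, with the hippocampus above in 812 (2.41%) and the cortex above in 806 (2.39%). With the slide as a block the median SE rose to 0.25 and 2550 probes were called (1404 higher in hippocampus, 1146 higher in cortex). Of the 11363 probes, 2356 remained called there and 10589 (93.2%) kept their direction. In the 7 animals scanned on the first day 11300 (99.4%) of the 11363 kept their direction, and in the 5 scanned later 10813 (95.2%). Both sets are parts of the animals that defined the direction, so this agreement was largely fixed in advance.

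The 12 genes with the largest differences toward hippocampus, among genes well above background on all 24 arrays, spanned 3.1 to 7.48 on the log2 scale. Those in cortex spanned 2.35 to 3.81. Every one of the 24 genes differed in the same direction in 12 of 12 animals, which the rule required, and for none of them did the regions overlap. Under the slide block 23 of the 24 remained called, the exception being Olr59.

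**Figure D1:**
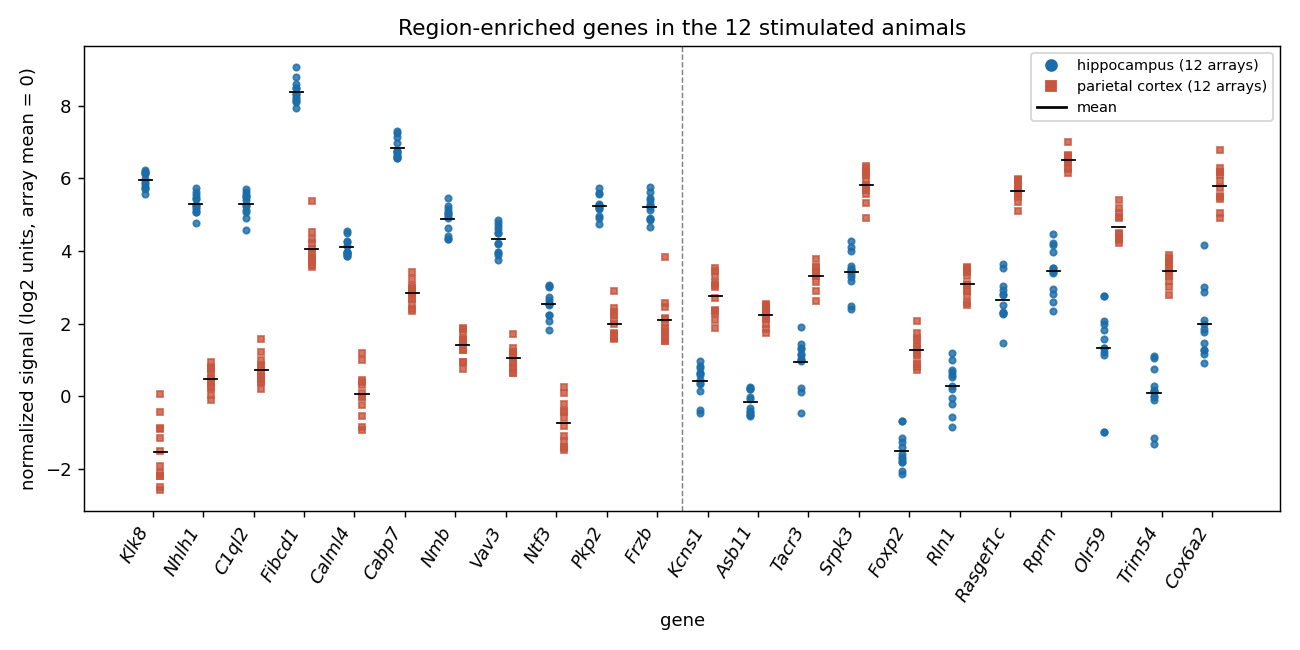
Normalized signal (log2 units, array mean set to 0) of 22 of the 24 genes with the largest differences between regions, 1 point per animal for 12 hippocampus arrays (blue circles) and 12 cortex arrays (red squares), with black bars at the means. For Klk8 the hippocampus lies between 5.57 and 6.23 and the cortex between -2.58 and 0.07, and for Cox6a2 the order is the opposite. In none of the 22 genes do the regions overlap.

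Among the hippocampal genes were several that encode secreted proteins. Klk8 was higher by 7.48 ± 0.18 (SE, n = 12, adjusted p = 2.8e-17), a 178-fold difference of signal. Ntf3 encodes neurotrophin-3, a growth factor of neurons. It stood at 1.83, 2.55 and 3.05 in hippocampus and at -1.47, -0.71 and 0.27 in cortex, a difference of 3.27 ± 0.16 (SE, n = 12). Nmb, the precursor of the peptide neuromedin B, differed by 3.48 ± 0.11 (SE, n = 12). Frzb, a secreted protein that binds Wnt ligands, ranged from 4.65 to 5.75 in hippocampus and from 1.53 to 3.84 in cortex.

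Of the other genes of this group, C1ql2 and Fibcd1 are markers of single hippocampal fields. C1ql2, a secreted synaptic protein of dentate granule cells, stood at 4.58, 5.34 and 5.71 in hippocampus and at 0.19, 0.59 and 1.58 in cortex, a difference of 4.58 ± 0.16 (SE, n = 12). Fibcd1, a membrane receptor used as a marker of CA1, stood at 7.93, 8.33 and 9.07 against 3.55, 3.89 and 5.38, a difference of 4.33 ± 0.13 (SE, n = 12). The highest cortex value of Fibcd1 was that of AI_iTBS 2, still below every hippocampus array. These values are those of its brightest probe, and its other tested probes differed by only 2.47 and 2.36. Nhlh1, a basic helix-loop-helix transcription factor of neurons, differed by 4.84 ± 0.15 (SE, n = 12). Calml4 (4.03 ± 0.21) and Cabp7 (3.99 ± 0.12) belong to the calmodulin-related calcium-binding proteins. Vav3, an exchange factor that activates small GTPases, differed by 3.28 ± 0.11, and Pkp2, a protein of desmosome-type junctions, by 3.25 ± 0.09 (all SE, n = 12). All 12 hippocampal genes had adjusted p of at most 2.7e-11.

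Nts and 3 other genes were well above background on all 12 hippocampus arrays and on at most 3 cortex arrays, so that only a lower bound of the difference was measured. Nts, the precursor of the peptide neurotensin, stood at 4.48, 4.89 and 5.41 in hippocampus. Of the cortex arrays 3 of 12 measured it, 2 of them at 0.43 (AU_iTBS 1) and 0.18 (AU_iTBS 4), and the bound was at least 170-fold higher in hippocampus. The bound was the mean of the hippocampus arrays against, on each cortex array, the higher of the lowest signal well above background and the probe's own. Cxcr1, a chemokine receptor, was at least 30.9-fold higher and Chst9, a sulfotransferase, at least 22.7-fold higher, and neither was well above background on any cortex array of a stimulated rat. Frem3, an extracellular matrix protein, was at least 28.2-fold higher. In the other direction Cd200r1, the receptor of the immune regulator CD200, was at least 9.15-fold higher in cortex. Ahrr, the repressor of the aryl hydrocarbon receptor, was at least 8.8-fold higher there. Cyp11b2, the aldosterone synthase, was at least 8.17-fold higher, and Ccl21, a chemokine, at least 6.5-fold. Under normexp background correction the fitted difference of Nts fell from 8.20 to 5.54 and those of the other 7 genes shrank by over 1.5 times. Direction and call remained for all 8, but each normexp difference lay below the gene's bound, which was 7.41 on the log2 scale for Nts and 4.95 for Cxcr1. The bounds therefore hold only for the background correction of the main fit.

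Of the genes higher in cortex, several are best known from muscle. Cox6a2 encodes the heart and muscle form of a cytochrome c oxidase subunit. Its signal was 0.93, 1.81 and 4.18 (lowest, median, highest of 12) in hippocampus and 4.90, 5.84 and 6.79 in cortex, a difference of -3.81 ± 0.18 (SE, n = 12, adjusted p = 1.1e-12). The highest hippocampus value was that of Y_iTBS 2. Trim54, a muscle RING-finger protein, stood at -1.32, 0.12 and 1.12 in hippocampus and at 2.79, 3.51 and 3.89 in cortex. Srpk3, a muscle protein kinase, differed by -2.40 ± 0.18, and Asb11, a substrate adaptor of ubiquitin ligases, by -2.39 ± 0.13 (SE, n = 12). Negative differences mean higher signal in cortex throughout.

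Markers of deep cortical layers and receptors made up most of the remainder. Rprm (Reprimo), a cell-cycle regulator used as a marker of layer 6, stood at 2.35, 3.47 and 4.47 in hippocampus and at 6.15, 6.54 and 7.00 in cortex, a difference of -3.06 ± 0.17 (SE, n = 12). Foxp2, a transcription factor of layer 6 neurons, stood at -2.14, -1.63 and -0.67 against 0.72, 1.24 and 2.08. Tacr3, the neurokinin 3 receptor, differed by -2.39 ± 0.18 (SE, n = 12). Rln1, a relaxin precursor, differed by -2.80 ± 0.18, Rasgef1c, a predicted activator of Ras, by -2.99 ± 0.14, and Kcns1, a silent potassium channel subunit, by -2.35 ± 0.18 (SE, n = 12). Olr59, named as an olfactory receptor, ranged from -0.99 to 2.78 in hippocampus and from 4.22 to 5.40 in cortex. Its difference of -3.33 ± 0.30 became -2.15 with the slide as a block (limma adjusted p = 0.060).

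Signal of the cortical genes in hippocampus tissue varied among animals. The mean of the 12 cortex genes on the hippocampus array was lowest in AU_iTBS 2 (0.18) and AU_iTBS 1 (0.24) and highest in Y_iTBS 2 (1.89), Y_iTBS 3 (1.83) and AI_iTBS 3 (1.79). Each of the first pair was the lowest of 12 for 5 of the 12 genes. The mean of the 12 hippocampal genes on the cortex array was highest in AI_iTBS 2 (1.47), where 5 of the 12 genes had their highest value, and lowest in AU_iTBS 4 (0.56). In the own region the means were 3.78 to 4.24 for the cortex genes and 4.93 to 5.62 for the hippocampal genes. Whether the proportion of neighboring tissue differed was not tested. Without AU_iTBS 1 and 2, 10400 probes were called, and all 11363 kept their direction. The remaining animals had helped to define that direction, so its agreement was largely fixed in advance.

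The sequences before the start sites of 4 genes are shown because these genes were among those that separated the regions and their windows held motifs of known neuronal or muscle transcription factors. They were taken from RefSeq (GRCr8), are windows of 300 bases that end 50 bases after the annotated start, and are written along the gene's strand. Capitals mark CAGATG (the E-box bound by factors such as Neurod6), TGACGTCA (the cAMP response element) or a loose MEF2 core. Each was searched on both strands. The loose core is CTA and TAG with any 4 bases between them, so not every match is a MEF2 site. The 4 windows do not overlap.
Neurod6, chr4:86180106-86180405, minus strand: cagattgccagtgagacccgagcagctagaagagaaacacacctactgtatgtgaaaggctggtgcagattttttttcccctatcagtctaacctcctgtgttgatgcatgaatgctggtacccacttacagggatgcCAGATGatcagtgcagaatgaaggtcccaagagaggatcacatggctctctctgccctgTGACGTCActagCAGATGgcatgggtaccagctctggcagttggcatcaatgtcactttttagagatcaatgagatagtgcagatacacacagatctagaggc
Nhlh1, chr13:87054885-87055184, minus strand: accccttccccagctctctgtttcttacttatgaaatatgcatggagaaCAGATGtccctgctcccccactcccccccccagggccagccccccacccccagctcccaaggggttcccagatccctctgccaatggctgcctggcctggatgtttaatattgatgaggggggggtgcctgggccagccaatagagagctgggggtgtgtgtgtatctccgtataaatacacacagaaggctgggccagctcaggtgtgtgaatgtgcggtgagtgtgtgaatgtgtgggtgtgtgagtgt
Rasgef1c, chr10:34728323-34728622, plus strand: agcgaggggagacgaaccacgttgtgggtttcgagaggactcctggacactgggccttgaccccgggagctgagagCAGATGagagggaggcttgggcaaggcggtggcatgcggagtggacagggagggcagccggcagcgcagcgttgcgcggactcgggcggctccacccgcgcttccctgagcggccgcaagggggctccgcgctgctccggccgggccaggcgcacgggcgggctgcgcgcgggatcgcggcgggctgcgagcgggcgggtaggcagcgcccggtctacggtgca
Cox6a2, chr1:192219667-192219966, minus strand: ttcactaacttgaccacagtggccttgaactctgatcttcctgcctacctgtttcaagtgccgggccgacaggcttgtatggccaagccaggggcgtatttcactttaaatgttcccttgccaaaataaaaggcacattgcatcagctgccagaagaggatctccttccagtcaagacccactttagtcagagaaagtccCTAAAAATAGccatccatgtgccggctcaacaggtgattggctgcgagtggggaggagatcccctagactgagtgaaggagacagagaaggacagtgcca
The Neurod6 window held CAGATG at 2 places, 112 and 41 bases before the start, and the cAMP response element at 53. Nhlh1, higher in hippocampus, and Rasgef1c, higher in cortex, each held CAGATG once. Cox6a2, which had the largest difference toward cortex among genes measured on all 24 arrays, held the MEF2 core 50 bases before its start.

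The motifs were counted in both directions of change. CAGATG was in 16.6% of 33469 promoters of the table, in 12.8% of 11160 named genes tested, in 16.6% of 477 genes at least 2-fold higher in hippocampus and in 16.9% of 295 genes at least 2-fold higher in cortex. The related E-box CAGCTG was in 15.1% of all promoters, in 17.0% of the tested, in 21.4% of the hippocampal genes and in 59 of the 295 cortical genes. The loose MEF2 core was in 3.84% of all promoters, 3.19% of the tested, 3.98% of the hippocampal and 3.05% of the cortical genes. The cAMP response element was in 1.83% of all promoters, 2.93% of the tested, 1.68% of the hippocampal and 1.69% of the cortical genes. These shares are descriptions of letters in 300-base windows, and genes with several annotated starts were counted as holding a motif if any window held it. The motifs were chosen with the windows in view.

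Gene lists were read against the named genes as a whole. With 1 probe per gene, 35.8% of 13677 named genes were called, 20.9% higher in hippocampus and 15.0% higher in cortex, and their median difference was 0.03. Of 14 genes listed for hippocampal identity, 13 were tested, 10 were higher in hippocampus, 1 was higher in cortex, and the median difference was 0.81. Nrp2, a semaphorin receptor, differed by 2.59 ± 0.15 (SE, n = 12). Tyro3, a receptor tyrosine kinase, was higher in cortex, at -0.71 ± 0.11 (SE, n = 12). Under the slide block, 8 of them were called for hippocampus and 1 for cortex. That block cut the calls over all probes from 11363 to 2550, so a lower count there is not particular to a list.

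The lists of the single hippocampal fields were called at smaller shares. Of 9 tested CA1 genes 5 were higher in hippocampus and 2 in cortex. Pou3f1, a POU-domain transcription factor, stood at 5.40, 5.78 and 6.03 in hippocampus and at 3.40, 3.70 and 4.13 in cortex. Of 10 CA2 genes 6 were higher in hippocampus and 1 in cortex, with Amigo2, an adhesion protein, at 1.23 ± 0.09 (SE, n = 12). Of 13 CA3 genes 6 were higher in hippocampus and 3 in cortex, led by Homer3, a scaffold of glutamate receptors (2.58 ± 0.10), and Cpne4, a calcium-dependent membrane-binding protein (2.07 ± 0.12). Of 13 dentate gyrus genes 6 were higher in hippocampus and 1 in cortex, with Il16, a cytokine gene with a neuronal form, at 2.67 ± 0.12 (SE, n = 12). The slide as a block left 4, 5, 6 and 4 of these lists' genes called higher in hippocampus, in the order CA1, CA2, CA3 and dentate gyrus.

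Cortical lists leaned to cortex in the same way. Of 12 upper-layer genes 7 were higher in cortex and 2 in hippocampus, with a median difference of -0.94. Lamp5, a membrane protein of upper-layer cells and interneurons, stood at 1.92, 2.89 and 3.18 in hippocampus and at 3.70, 4.57 and 5.55 in cortex. Kcnh5, a potassium channel, differed by -2.12 ± 0.15 (SE, n = 12) and was measured above background on 3 of 12 hippocampus arrays. Of 18 deep-layer genes 8 were higher in cortex and 3 in hippocampus. One of the latter was Bcl11b (Ctip2), a transcription factor that marks layer 5 and also hippocampal neurons, at 6.79, 7.03 and 7.44 in hippocampus against 4.89, 5.44 and 5.91 in cortex. Of 12 genes of neocortical identity 6 were higher in cortex and 1 in hippocampus, with Stx1a, a protein of vesicle fusion, at -1.82 ± 0.09 (SE, n = 12). By slide, 6, 4 and 5 genes of the 3 lists were called higher in cortex, and the median of the deep-layer list changed from -0.36 to 0.05.

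**Figure D2:**
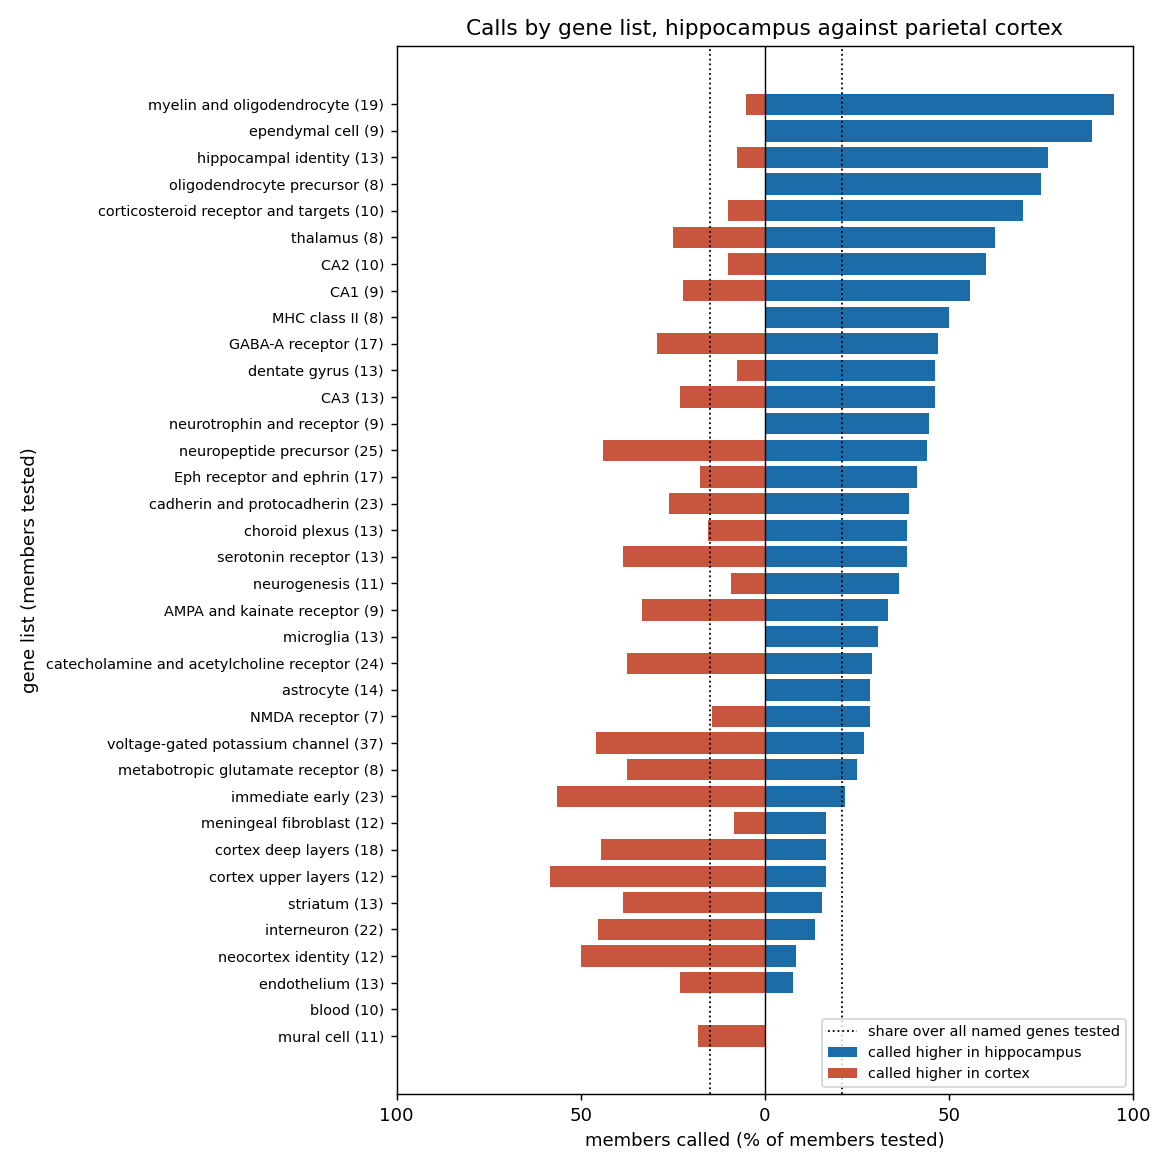
Share of the tested members of each of 36 gene lists called higher in hippocampus (blue, to the right) or in cortex (red, to the left) in the 12 stimulated animals, with the number tested in parentheses. Dotted lines mark the shares over all named genes tested, 20.9% and 15.0%. The myelin list reaches furthest to the right, with 18 of 19 members, and the upper-layer list furthest to the left, with 7 of 12.

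Calls among receptors for glutamate went in both directions. Of 7 NMDA receptor subunits 2 were higher in hippocampus and 1 in cortex, all by less than 1. Of 9 AMPA and kainate receptor subunits 3 were called in each direction. Gria1, the GluA1 subunit, stood at 5.32, 5.90 and 6.76 in hippocampus and at 4.22, 4.61 and 4.91 in cortex, without overlap, and Grik4, a kainate receptor subunit known from CA3, differed by 1.10 ± 0.13 (SE, n = 12). Grik3, called higher in cortex at -1.23 ± 0.35, was measured on only 7 hippocampus arrays, and with the slide as a block its difference was 2.32. Of 8 metabotropic receptors 2 were higher in hippocampus and 3 in cortex, and none remained called with the slide as a block. That block left 0 NMDA receptor subunits called, and 3 AMPA and kainate receptor subunits in hippocampus and 0 in cortex (limma).

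Among 17 GABA-A receptor subunits 8 were higher in hippocampus and 5 in cortex. Gabra5, the alpha5 subunit of extrasynaptic receptors, stood at 2.44, 2.75 and 3.15 in hippocampus and at 0.29, 1.23 and 2.18 in cortex, a difference of 1.47 ± 0.15 (SE, n = 12). Gabrd, the delta subunit, which also forms extrasynaptic receptors, was higher in cortex, at 6.18, 6.52 and 6.83 against 5.37, 5.64 and 5.91, a difference of -0.92 ± 0.07 (SE, n = 12). Both were called with the slide as a block, where 2 subunits remained in each direction. Gabra3, at -1.34 ± 0.17, did not remain there (limma adjusted p = 0.12).

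Of 13 serotonin receptors 5 were higher in each region. Htr5b was the largest, at 4.05, 4.56 and 5.06 in hippocampus, where 11 arrays gave a value, against -4.71, -3.19 and 0.06 in cortex. In cortex 5 of 12 arrays measured it, so the difference of 7.71 ± 0.31 (SE, n = 11 pairs) is partly set by background. Htr1a, the inhibitory 5-HT1A receptor, stood at 0.09, 0.47 and 1.07 in hippocampus, above every cortex array (-3.32 to -1.04), of which 6 of 12 measured it. Htr2a, the excitatory 5-HT2A receptor, was higher in cortex in 12 of 12 animals, at -1.51 ± 0.10 (SE, n = 12), with regions that overlapped. Of 24 catecholamine and acetylcholine receptors 7 were higher in hippocampus and 9 in cortex. Adra1b, an alpha-1 adrenergic receptor, stood at 2.10, 2.92 and 3.41 in hippocampus and at 4.19, 5.34 and 5.85 in cortex, and Adrb3, a beta adrenergic receptor, differed the other way by 1.48 ± 0.11 (SE, n = 12). When slide was a block, 4 and 1 serotonin receptors, and 1 and 3 of the other receptors, were called in hippocampus and cortex.

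Peptide precursors were called at the highest share of the neuronal lists, 22 of 25, in equal numbers for the regions (11 and 11). Beside Nts and Nmb, Trh, the precursor of thyrotropin-releasing hormone, was higher in hippocampus by 2.03 ± 0.24 (SE, n = 12), although only 6 of 12 cortex arrays measured it. Crh, the precursor of corticotropin-releasing hormone, stood at 1.06, 1.62 and 1.83 in hippocampus and at 2.72, 3.29 and 3.69 in cortex, a difference of -1.84 ± 0.07 (SE, n = 12). Cort, the precursor of cortistatin, differed by -1.59 ± 0.12 (SE, n = 12). Of 22 interneuron genes 10 were higher in cortex and 3 in hippocampus, with Vip, the precursor of a peptide of 1 interneuron class, at -1.57 ± 0.13 (SE, n = 12) without overlap. The slide as a block left 5 and 6 peptide precursors called in hippocampus and cortex, and 2 interneuron genes in cortex.

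Of 37 voltage-gated potassium channel genes 17 were higher in cortex and 10 in hippocampus. Kcnf1, a silent subunit, differed by -2.40 ± 0.23 and Kcng2, another silent subunit, by 2.11 ± 0.16 (SE, n = 12), and neither gene overlapped between regions. Kcng2 stood at 6.45, 6.74 and 7.06 in hippocampus and at 3.88, 4.73 and 5.13 in cortex. Under the same block 10 channels were called in cortex and 5 in hippocampus, and Kcnf1 was not among them (limma adjusted p = 0.074).

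Immediate early genes, which neurons switch on within minutes to hours of activity, were mostly higher in cortex. Of 23 tested, 13 were higher in cortex and 5 in hippocampus, with a median of -0.37. Fos ranged from -0.13 to 0.89 in hippocampus and from 0.30 to 2.80 in cortex, and was higher in cortex in 11 of 12 animals, the exception being AI_iTBS 1. Egr1 stood at 3.59, 4.46 and 4.92 in hippocampus and at 3.92, 5.32 and 6.32 in cortex, a difference of -0.91 ± 0.09 (SE, n = 12). For both genes the cortex arrays spread more widely than the hippocampus arrays, with SDs of 0.80 and 0.33 for Fos and of 0.73 and 0.42 for Egr1. Npas4, a neuron-specific factor of the same kind, differed by -2.24 ± 0.35, but 4 of 12 hippocampus arrays measured it. Nr4a3, a nuclear receptor, was higher in hippocampus by 1.28 ± 0.16 without overlap, and Arc, a regulator of synaptic strength, gave 0.13 ± 0.16 (SE, n = 12, limma adjusted p = 0.58). In sham animals, which had the same anesthesia, the median of the list was -0.53, and Fos differed by -1.66. Blocking on slide left 1 gene called in cortex and 2 in hippocampus, while 20 of 23 kept their direction and the median was -0.58.

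The receptors for growth factors and steroids leaned to hippocampus. Of 9 neurotrophin genes and receptors 4 were higher in hippocampus and none in cortex. Bdnf, brain-derived neurotrophic factor, stood at 2.64, 3.25 and 3.69 in hippocampus and at 1.34, 2.19 and 2.54 in cortex, a difference of 1.13 ± 0.13 (SE, n = 12). Of 10 corticosteroid receptors and targets 7 were higher in hippocampus and 1 in cortex. Nr3c2, the mineralocorticoid receptor, stood at 5.38, 5.64 and 6.15 in hippocampus and at 3.48, 3.89 and 4.19 in cortex, a difference of 1.84 ± 0.07 (SE, n = 12). Fkbp5, a co-chaperone of the glucocorticoid receptor that this receptor induces, differed by 0.81 ± 0.07 without overlap. After blocking on slide, 3 neurotrophin genes and 1 of the corticosteroid list remained called, Fkbp5 falling to 0.42 (limma adjusted p = 0.079). Of 11 genes of neurogenesis, which in adult rats continues in the dentate gyrus, 4 were higher in hippocampus and 1 in cortex. Igfbpl1, expressed in immature neurons, differed by 2.41 ± 0.29, and Dcx, a microtubule protein of migrating neurons, was higher in cortex, at -0.82 ± 0.10 (SE, n = 12). Under the slide block 1 gene of this list was called in each region, the median changed from 0.23 to 0.06, and Igfbpl1 fell to 0.83 (limma adjusted p = 0.43).

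Of 19 myelin and oligodendrocyte genes 18 were higher in hippocampus and 1 in cortex, with a median of 0.66. Mobp, the myelin-associated oligodendrocyte basic protein, stood at 7.46, 7.68 and 8.28 in hippocampus and at 6.16, 6.87 and 7.45 in cortex, a difference of 0.84 ± 0.12 (SE, n = 12). Mbp, the myelin basic protein, was the 1 gene called in cortex, at -0.40 ± 0.13 (SE, n = 11 pairs), and lost its call under normexp background correction (adjusted p = 0.16). Of 8 genes of oligodendrocyte precursors 6 were higher in hippocampus and none in cortex. No gene of either list was called with the slide as a block, and the medians were 0.27 and 0.33. Over all probes the calls also fell with that block, from 11363 to 2550. In the first-day animals 16 of the 19 myelin genes were called higher in hippocampus, and in the later animals 9 of 19. All 19 kept their direction in both sets, which are parts of the animals that defined it. In most of the later animals the regions were scanned on different days. Slide therefore cannot be told apart from region for these differences of less than 2-fold.

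Other glia differed less. Of 14 astrocyte genes 4 were higher in hippocampus and none in cortex, led by Gfap, the intermediate filament of astrocytes, at 4.56, 5.08 and 5.68 in hippocampus against 2.79, 3.86 and 4.70 in cortex (1.34 ± 0.15, SE, n = 12). Gfap remained called with the slide as a block. Of 13 microglia genes 4 were higher in hippocampus and none in cortex, with differences under 0.4 for each of the 3 largest (Itgam, Ptprc and C1qa). Of 8 MHC class II genes, which present antigen, 4 were higher in hippocampus. Cd74, the invariant chain, ranged from 0.95 to 5.24 in hippocampus and from -0.11 to 4.37 in cortex, and was higher in hippocampus in 12 of 12 animals, by 1.08 ± 0.22 (SE, n = 12). The 4 young animals held the lowest values in hippocampus, at 0.95 to 2.03, while the aged ones ranged from 2.44 to 5.24. Including Gfap, 1 astrocyte, 0 microglia and 1 MHC class II gene remained called there.

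Markers of tissue next to the hippocampus were called more often in it than in cortex, in part only without the slide as a block. Of 9 ependymal genes 8 were higher in hippocampus, with a median of 1.45. Hdc, which makes histamine and is listed here with ependymal genes, differed by 3.31 ± 0.37 (SE, n = 12). Of 13 choroid plexus genes 5 were higher in hippocampus and 2 in cortex. Ttr, transthyretin, the most abundant transcript of choroid plexus, ranged from 4.78 (Y_iTBS 3) to 11.1 (AU_iTBS 2) in hippocampus and from 3.32 to 9.43 in cortex. It was higher in hippocampus in 9 of 12 animals. After blocking on slide, no ependymal gene was called, 1 choroid plexus gene was called in cortex, and the choroid plexus median changed from 0.73 to -0.42. Of 8 thalamus genes 5 were higher in hippocampus and 2 in cortex, led by Lhx9, a LIM homeodomain factor, at 5.05 ± 0.52 (SE, n = 12) with 3 of 12 cortex arrays measuring it. Blocking on slide left 2 thalamus genes called in hippocampus and 1 in cortex, 4 of 8 kept their direction, and the median changed from 0.77 to -0.15. The summed signal of the thalamus list was 6.34 to 7.76 in hippocampus and 6.33 to 6.53 in cortex, and that of the striatum list 7.36 to 8.00 and 8.00 to 8.56. The part of these tissues in the other results was not tested.

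The share called was 30.8% for endothelial, 18.2% for mural cell, 0% for blood and 25% for meningeal fibroblast genes. Over all named genes it was 35.8%, and these lists are short. Of 13 endothelial genes 3 were higher in cortex and 1 in hippocampus, of 11 mural cell genes 2 were higher in cortex, and of 10 blood genes 0 were called with limma. Of 12 meningeal fibroblast genes 2 were higher in hippocampus and 1 in cortex.

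**Figure D3:**
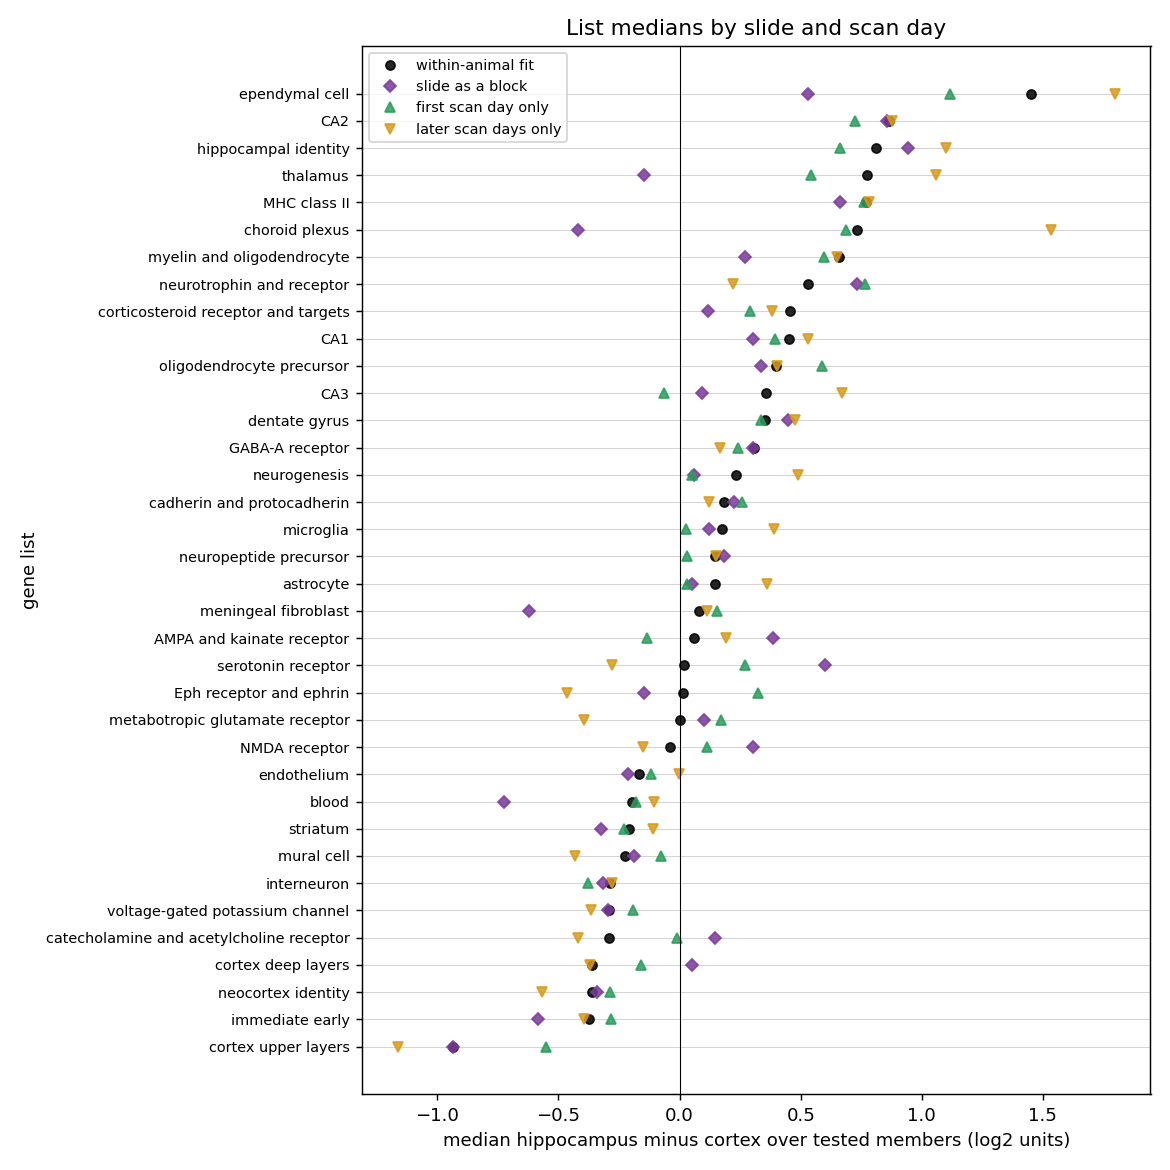
Median hippocampus minus cortex difference (log2 units) over the tested members of each gene list, for the within-animal fit of the 12 stimulated animals (black circles), the fit with slide as a block (purple diamonds), the 7 animals scanned on the first day (green triangles) and the 5 scanned later (orange triangles). Upper-layer genes lie at -0.94 in the first 2 fits, whereas the choroid plexus list moves from 0.73 to -0.42 with the slide as a block.

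The regions differed in each group of animals. In Y_iTBS animals 5620 of 33720 probes were called (16.7%), in AU_iTBS animals 8117 (24.1%) and in AI_iTBS animals 2296 of 33719 (6.81%), counts that move with the 4, 5 and 3 animals. Without 1 animal the counts fell by more than 1.5 times for Y_iTBS 2 (3616), Y_iTBS 3 (3450), Y_iTBS 4 (2440), AU_iTBS 2 (5016), AI_iTBS 1 (1343) and AI_iTBS 2 (1087). Between Y_iTBS and AU_iTBS 3200 probes were called in both, 56.9% of the first and 39.4% of the second, and 3192 had the same sign. Of the AI_iTBS calls 1995 (86.9%) were also called in Y_iTBS and 2106 (91.7%) in AU_iTBS. Klk8 differed by 6.96, 8.37 and 6.68 in Y_iTBS, AU_iTBS and AI_iTBS, Cox6a2 by -3.70, -4.00 and -3.65, and Rprm by -2.66, -3.47 and -2.93.

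Whether the region difference moved with age or cognitive status was tested directly. Between aged and young stimulated animals limma called 1 of 33719 probes (0.00297%), and 2643 had an unadjusted p under 0.05. It was the unnamed probe of the predicted RNA XR_598705, which this count and not the rule for named genes singled out. Its region difference was 2.45 to 3.46 in the 4 young animals and 0.03 to 1.75 in the 8 aged ones, -2.40 ± 0.31 (SE) aged minus young with adjusted p = 0.0055. No probe was called (0) with normexp, with the strictest filter, with the 12 stimulated animals alone, or without Y_iTBS 2 or Y_iTBS 4. In young cortex only 1 of 4 arrays measured it, so that difference is partly set by background. Of named genes, Tacr2, the neurokinin 2 receptor, came closest, with 0.23 in young and 1.76 and 1.30 in AU_iTBS and AI_iTBS animals (limma adjusted p = 0.19). Between AI_iTBS and AU_iTBS animals 0 probes were called (0%) with limma, 1354 had an unadjusted p under 0.05, and the smallest adjusted p was 0.73. Among named genes Gabrr3, a rho subunit of GABA receptors, was first, at -0.21 in AI_iTBS and 2.20 in AU_iTBS, but was measured on 6 of 12 hippocampus and 2 of 12 cortex arrays.

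The difference between regions in stimulated rats was set against that in sham rats. In the 12 sham animals limma called 12134 of 33720 probes (36%). Both groups of animals shared 8923 calls, 78.5% of those in stimulated and 73.5% of those in sham animals, and 8920 of them had the same sign. Across all probes, which are not independent replicates, the differences correlated with r = 0.910. Sham arrays lay on the same 7 slides as the stimulated ones, so this agreement is not independent of slide. In the test of stimulated minus sham animals limma called 0 of 33719 probes (0%), 1156 had an unadjusted p under 0.05, and the smallest adjusted p was 0.98. Of the 24 largest genes, Klk8 differed by 7.48 in stimulated and 7.57 in sham animals, and Cox6a2 by -3.81 and -4.40. The lowest unadjusted p among them was that of Ntf3, at 3.27 and 3.95 (limma unadjusted p = 0.0061, adjusted p = 0.98 over all probes).

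**Figure D4:**
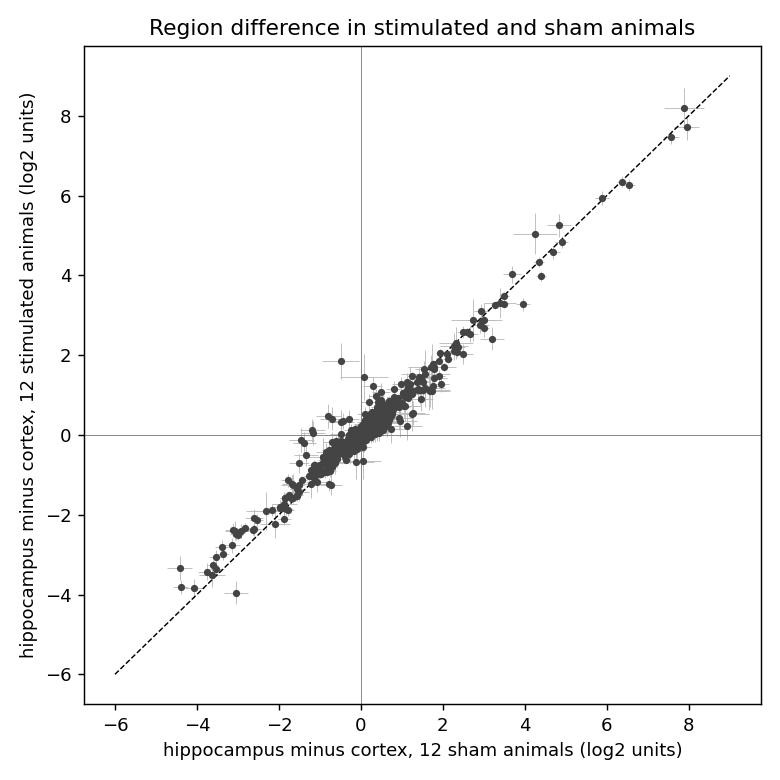
Hippocampus minus cortex difference in the 12 stimulated animals (vertical, log2 units) against that in the 12 sham animals (horizontal, log2 units), 1 point per gene named or listed, with SE bars from the limma fit. The dashed line marks equal differences. Klk8 lies at 7.48 and 7.57, and no gene passed the test of stimulated minus sham animals.

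Dkk1, a secreted Wnt antagonist, had the smallest p of the named genes in that test, with region differences of 0.12 in stimulated and -1.60 in sham animals, but few arrays measured it (2 of 12 in hippocampus, 3 of 12 in cortex of stimulated rats). Wnt5a, a Wnt ligand, differed by 1.17 and 0.57, and Cpxm2, a carboxypeptidase-like protein, by 0.38 and -0.63 (adjusted p = 0.98 for each with limma). Of 12 meningeal fibroblast genes 9 had an unadjusted p under 0.05, against 0 to 3 in each of the other 35 lists. None of the 12 had an adjusted p under 0.98. Over all probes 1156 of 33719 had an unadjusted p under 0.05 with limma. The list was singled out by this count, and its members are not independent replicates. All 12 differences lay higher in stimulated than in sham animals. The median of that list was 0.08 in stimulated and -0.75 in sham animals. In single stimulated animals the median difference of its members ranged from -1.20 (AU_iTBS 5) to 0.80 (Y_iTBS 4). Blocking on slide moved the median in stimulated animals to -0.62, with 7 of 12 genes keeping their direction and 0 called (limma). Fmod, a collagen-binding proteoglycan, differed by 0.12 and -1.18, and Col1a2, a chain of type I collagen, by -0.13 and -1.45.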

How the data were processed

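RNA of 56 arrays was hybridized to 1-color Agilent rat arrays and read with Feature Extraction 12.0.3.1. The authors deposited, per spot, a background-subtracted processed intensity and the raw median intensity, and a value table of standard scores, which matched the z-scores of the log2 processed signals within 0.005. One array whose labels named different groups was not used. The repeat array of AI_iTBS 2 cortex matched AI_Sham 2 (r = 0.950) and not its own first array (r = -0.08), and entered only the alternative that averages repeats.

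From the deposited intensities, log2 signals of 58717 non-control spots were turned into z-scores per array and multiplied by their mean SD of 4.08, so that they read as log2 units. Flagged spots (267 to 1448 per array) were left out and spots of 1 probe averaged, giving 45598 probes. Of these 46.3% had a gene symbol through RefSeq accessions, 93.9% of those with a curated accession. Probes well above background in at least 3 animals in either region were tested. The difference between regions within each animal was fitted in limma 3.58.1 (R 4.3.3) with 6 group means over 24 stimulated and sham animals (18 residual degrees of freedom, prior 2.48), with Benjamini-Hochberg adjustment over all probes tested. The number of arrays limits the precision. The script was tested on simulated data with known changes.

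One probe per gene, the brightest, was used. Named were the 12 genes with the largest difference in each direction among curated transcripts measured on all 24 arrays with the same sign in 12 of 12 animals, the 4 largest lower bounds in each direction, the leading called members of the gene lists, the 3 markers and the leading genes of each contrast between groups. Examples within lists were a selection of these. Some of these genes are not reported here by name. Members, lists and tests were chosen with earlier results of these data known.

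Animals were paired by the identifier in the labels. The deviations of the regions of 1 animal correlated at -0.13 to 0.25, and in 7 of 12 stimulated animals the best match was the animal's own other region. Over 214 to 239 probes that differ between animals in both regions, the own other region was the best match in 24 of 24 animals (r of 0.686 to 0.922, at most 0.537 with any other animal). Alternatives were other normalizations, background correction (normexp, offset 50, on median signals, as mean signals were not used here), filters, technical repeats, samples, weights, pairing, slide, each animal left out and the study's selection rule. After the data had been seen, sets by scan day, values within a slide and a fit without AU_iTBS 1 and 2 were added.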

Additional observations from a re-analysis of the deposited data

Results flagged for a closer look

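In 4 of 68 groups of 4 or 5 animals, 1 animal's region difference lay far from the others, where chance gives about 1 in 20 groups (3.4 expected). Rasgef1c was -4.51 in AU_iTBS 2 and -3.38 to -3.06 in the other AU_iTBS animals. Tacr3 was -3.85 in AU_iTBS 1 and -2.51 to -1.99 in the others of that group. Neurod6 was 1.74 in Y_iTBS 1 against 2.22 to 2.27, and Zbtb20 was 1.59 in the same animal against 0.43 to 0.48 in the other young animals. The hippocampus arrays of AU_iTBS 1, AU_iTBS 2 and Y_iTBS 1 were scanned on another day than their cortex arrays, and the part of this in the values was not tested. The region difference of the predicted RNA XR_598705 differed between aged and young stimulated animals by -2.40 in the test of the difference itself (limma adjusted p = 0.0055), a call that was lost without Y_iTBS 2 or Y_iTBS 4.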

How the results depend on the processing

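The number of probes that differed between regions in the 12 stimulated animals was 9041 to 12075 under the other normalizations, background correction, filters, repeats, samples and weights. Without the pairing by animal (no replicate block) it was 11301, and the pairing changed no other count by over 1.5 times except that for aged minus young animals (2 probes). With the slide as a block the counts were 2550, and 866, 2637 and 1022 in Y_iTBS, AU_iTBS and AI_iTBS animals, and with the study's selection rule 1479, and 1162, 1403 and 1053. Only with animals scanned on the first day, 2291 probes were called in AU_iTBS animals, with the same day 3334 in AU_iTBS and 1307 in AI_iTBS animals, and with the later days 235 in Y_iTBS and 184 in AI_iTBS animals. Without AU_iTBS 1 and 2, 3337 were called in AU_iTBS animals. These sets hold fewer animals. Stimulated minus sham animals gave 1 probe on the first day and 1 on the same day. Aged minus young animals gave 2 with 75th percentile scaling, 7 on the later days, and 0 with normexp, with the strictest filter, with the 12 stimulated animals alone, on the first day and on the same day. AI_iTBS minus AU_iTBS animals gave 2 on the later days. Leaving out 1 animal gave 10340 to 11367 probes in all, 2440 to 5101 in Y_iTBS, 5016 to 9949 in AU_iTBS and 1087 to 1936 in AI_iTBS animals, 0 to 0 for stimulated minus sham, 0 to 2 for aged minus young and 0 to 0 for AI_iTBS minus AU_iTBS animals.

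Of 135 genes, 72 kept their direction and call under every alternative run, among them 31 of the 32 with the largest differences or bounds. Those 32 had been picked for large differences or bounds on the same arrays, so their stability was largely set by the selection. The direction reversed with the slide as a block for Grik3 (2.32), Grin3a (0.24), Calb2 (-0.44) and Rgs16 (0.14), and on the later days for Adcy5 (0.044), Kcne2 (0.0068) and Vwf (-0.0026). The cause was not tested. Probes near background give bounds only, and slide and region were largely confounded, for differences of any size. Differences of over 2-fold that lost their call with the slide as a block included those of Olr59, Kcnf1, Igfbpl1, Gabra3 and Hdc.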

Other observations

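Molecules of cell adhesion and axon guidance also separated the regions. Of 23 cadherins and protocadherins 9 were higher in hippocampus and 6 in cortex, with Cdh9, a classical cadherin, at 1.91 and Pcdh11x, a protocadherin, at -2.50. Of 17 Eph receptors and ephrins 7 were higher in hippocampus and 3 in cortex, with Epha8, a receptor, at 2.86, Epha7, a receptor, at 1.71 and Efna5, an ephrin ligand, at -2.50. With the slide as a block 5 cadherin genes were called in each region, and 4 and 2 of the Eph list.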
